A study of Homo sapiens with 4 samples.

Results

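The genes described here encode the signalling adaptors of natural killer (NK) cell activating receptors and the first enzymes and scaffolds that those adaptors feed. They are 10 genes, TYROBP, HCST, CD247, FCER1G, SYK, ZAP70, LCK, LAT, VAV1 and PLCG2, chosen by name from the 61860 gene identifiers of the count table. All 10 were found by symbol, and all 10 passed the filter on low counts. RNA came from NK-92, an established human NK cell line that is grown with interleukin 2 (IL-2). The edited line, ΔOGT-ISS, had an intronic splicing silencer of OGT removed with CRISPR-Cas9 and was compared with unedited wild-type (WT) NK-92. OGT encodes the enzyme that attaches the sugar O-GlcNAc to proteins inside the cell. Each line gave 1 library from cells that received IL-2 48 h before RNA extraction and 1 from cells that received it 24 h before, 4 libraries in all. IL-2 appears in the titles of the 24 h samples alone, but the treatment labels list it for each of the 4, and those labels were used. A single edited line was compared, and whether it is a clone is not given in the sources used here.

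Most activating receptors of NK cells have no signalling motif of their own and borrow one from a small transmembrane partner. TYROBP encodes DAP12, CD247 encodes CD3ζ and FCER1G encodes the Fc receptor γ chain, and these carry ITAM motifs, paired tyrosines that dock the kinases SYK and ZAP-70 once a Src family kinase such as LCK has phosphorylated them. HCST encodes DAP10, the partner of the receptor NKG2D, whose YINM motif instead recruits phosphoinositide 3-kinase and a complex of GRB2 and VAV1. LAT is a membrane scaffold, VAV1 is a guanine nucleotide exchange factor, and phospholipase Cγ2, from PLCG2, makes the messengers that release calcium and activate protein kinase C.

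The 48 h libraries held 11305599 (ΔOGT-ISS) and 10889986 (WT) counts, and the 24 h libraries 28576566 (ΔOGT-ISS) and 24809269 (WT). The smallest value that 3 counts allow was between 0.103 and 0.284 CPM (counts scaled to library size and normalized by TMM), and every member lay above it in every library. OGT itself had line ratios of 0.893 at 48 h and 0.855 at 24 h, so its normalized level was not above WT in either ΔOGT-ISS library. Gene counts do not separate spliced from intron-retaining OGT transcripts and do not check the deletion. Of 12 NK cell markers 10 lay at 5 CPM or more in every library, among them NCAM1, which encodes CD56, at 263 to 474 CPM. The exceptions were KLRF1, with 4 counts in all, and CD7, which was under 1 CPM at 48 h. Of 11 T cell markers 6 averaged under 1 CPM, including CD4 and CD8A, while CD3E, TRAC, TRBC1, TRBC2 and CD28 lay between 19.9 and 316 CPM. Of 12 myeloid markers 8 averaged under 1 CPM, and the other 4 were S100A8, S100A9, CSF1R and ITGAM. Of 7 B cell markers 5 averaged under 1 CPM, while PAX5 lay between 52.0 and 80.8 CPM and IGHM between 7.84 and 141 CPM. In bulk RNA, fewer cells that express a gene and less RNA per cell cannot be told apart.

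The adaptor genes TYROBP and HCST fell in the ΔOGT-ISS line, TYROBP 6.70-fold and HCST 2.92-fold, while the other 8 members did not pass the test. TYROBP (ENSG00000011600, chromosome 19, 35904401 to 35908295, minus strand, GRCh38) had 1.31 CPM in ΔOGT-ISS cells against 6.43 CPM in WT cells at 48 h, and at 3.28 CPM in ΔOGT-ISS cells against 26.9 CPM in WT cells at 24 h. Both ΔOGT-ISS libraries lay below both WT libraries. For this order, also described below for HCST and PLCG2, the share over all genes tested was not counted. These values rest on 15 and 68 reads at 48 h and on 95 and 662 reads at 24 h. At 48 h the line ratio was 0.204, with a 95% counting interval of 0.108 to 0.361, and at 24 h it was 0.122, with an interval of 0.0972 to 0.151. The fitted log2 difference was -2.74 (SE 0.34, edgeR quasi-likelihood test, adjusted p = 0.0242).

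HCST (ENSG00000126264, chromosome 19, 35902480 to 35904377, plus strand) stood at 22.5 CPM in ΔOGT-ISS cells against 60.6 CPM in WT cells at 48 h, and at 13.7 CPM in ΔOGT-ISS cells against 43.3 CPM in WT cells at 24 h. Again the lines did not overlap. HCST had a ratio of 0.372 at 48 h (0.321 to 0.431) and of 0.315 at 24 h (0.280 to 0.354), and the fitted log2 difference was -1.55 (SE 0.18, edgeR adjusted p = 0.0204). Of the 10 members edgeR called 2 lower and 0 higher in ΔOGT-ISS, where over all 17492 genes tested it called 0.314% lower and 0.149% higher, 0.463% in either direction. At an unadjusted p of 0.05 edgeR had 3 members lower and 0 higher, where PLCG2 is the third, and 977 lower and 612 higher of all genes tested. DESeq2 called the same 2 genes lower and 0 higher, and limma on log2(FPKM + 1) called 0 in either direction, with 2 lower and 0 higher at an unadjusted p of 0.05. The median log2 difference over the 10 members was -0.22, against 0.02 over all genes tested. Both calls rest on the IL-2 time being in the model. Without that term edgeR called 0 of all genes tested between the lines, so losing the call is not particular to these 2 genes. TYROBP then stood at -2.84 and HCST at -1.52. With any 1 library left out the term could not be kept, and 1 line held a single library. TYROBP ranged there from -3.73 (without ΔOGT-ISS at 24 h) to -1.43 (without WT at 24 h) and HCST from -1.93 to -1.25.

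**Figure D1:**
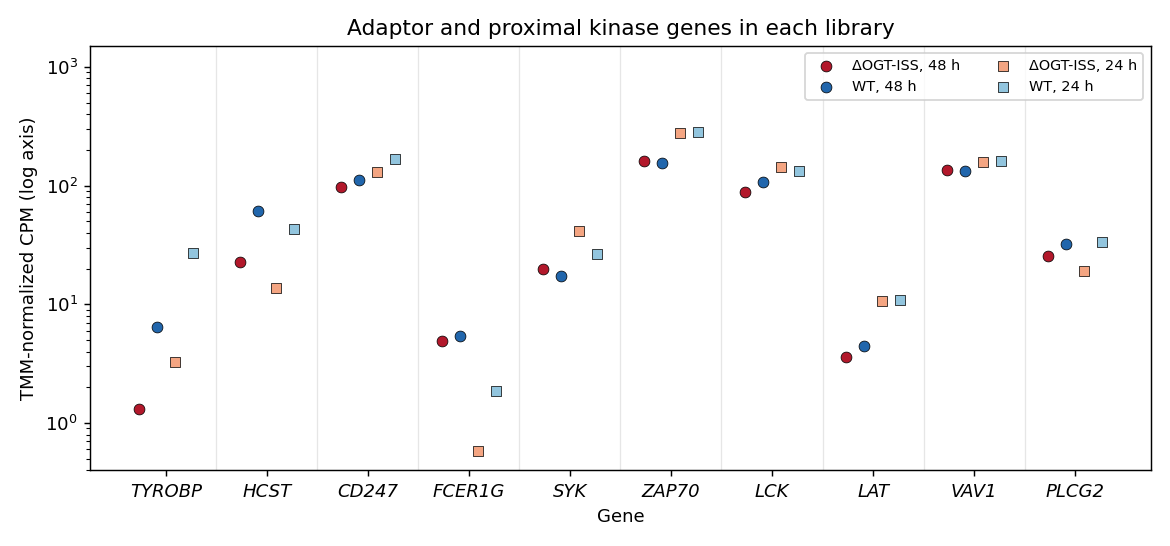
TMM-normalized CPM (log axis) of the 10 genes in each of the 4 libraries, 1 point per library, with ΔOGT-ISS left of WT at 48 h (circles) and at 24 h (squares). TYROBP runs from 1.31 CPM in ΔOGT-ISS at 48 h to 26.9 CPM in WT at 24 h, and for TYROBP and HCST both ΔOGT-ISS points lie below both WT points. How common this order was over all genes tested was not counted.

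HCST and TYROBP are neighbours that point at each other, with 23 bases between the end of HCST and the end of TYROBP, and their starts are 5815 bases apart.

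The genes around HCST and TYROBP did not pass the test. Within 250 kb on either side, 25 other genes were tested, of which edgeR called 0, also at an unadjusted p of 0.05, as did DESeq2 and limma after adjustment. The 21 protein-coding ones had a median log2 ratio of -0.01 at 48 h and -0.11 at 24 h. NFKBID, which encodes an inhibitor of NF-κB and lies next to HCST, stood at -0.22 and -0.38. LRFN3, a neuronal adhesion gene on the other side of TYROBP, had 40 counts in ΔOGT-ISS and 0 in WT at 48 h, and 68 in ΔOGT-ISS and 73 in WT at 24 h. With the median of 20 neighbouring genes on each side removed at each time, TYROBP stood at -2.64 (edgeR adjusted p = 0.0228) and HCST at -1.44 (0.0214). A gene of uncertain status on the opposite strand, ENSG00000280194, overlaps HCST by 1376 bases. It had 19 counts in ΔOGT-ISS and 11 in WT at 48 h, and 35 in ΔOGT-ISS and 85 in WT at 24 h. Whether strand was used in counting is not given, so a part of these reads could belong to either gene.

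**Figure D2:**
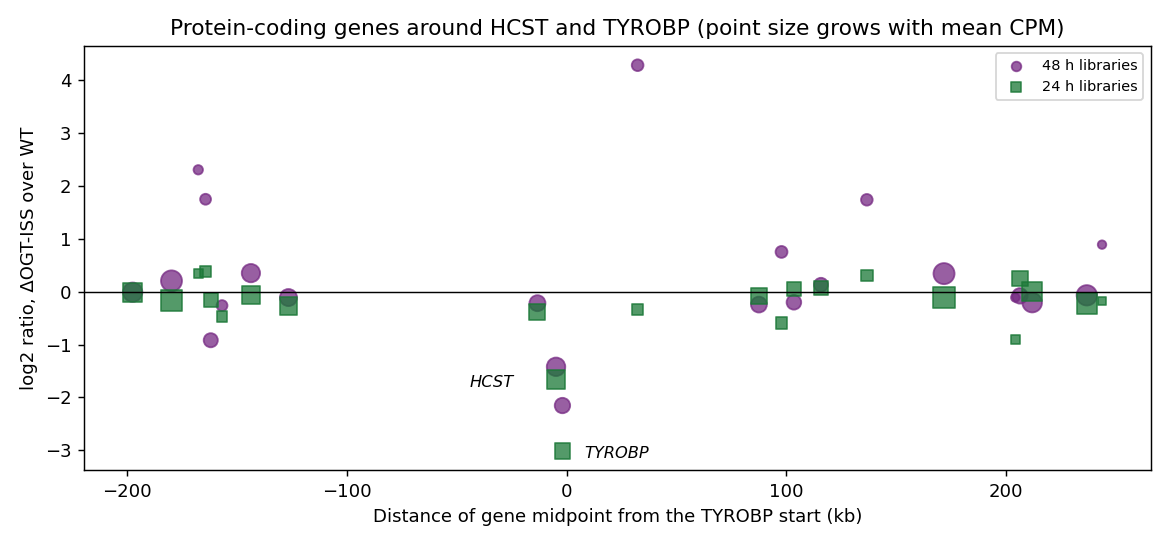
Log2 ratio of ΔOGT-ISS over WT at 48 h (circles) and 24 h (squares), with a prior count of 2, for the 23 tested protein-coding genes around HCST and TYROBP, by distance of the gene's midpoint from the TYROBP start in kb, with point area growing with mean CPM. HCST (-1.42 and -1.66) and TYROBP (-2.15 and -3.01) lie lowest, while the other 21 have medians of -0.01 and -0.11. The highest point is LRFN3 at 48 h, where WT had 0 counts.

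The other ITAM adaptors were lower in ΔOGT-ISS in at least 1 pair of libraries but did not pass the test. CD247 (chromosome 1, 167430640 to 167518610) was counted at 97.6 CPM in ΔOGT-ISS cells against 112 CPM in WT cells at 48 h, and at 129 CPM in ΔOGT-ISS cells against 168 CPM in WT cells at 24 h. Its ratios of 0.870 (0.801 to 0.945) and 0.766 (0.732 to 0.800) were small beside those of TYROBP and HCST, and the log2 difference of -0.29 (SE 0.16) had an edgeR adjusted p of 0.685. FCER1G (chromosome 1, 161215234 to 161220699) was the most thinly counted member, with 56 reads in ΔOGT-ISS and 57 in WT at 48 h, and 17 in ΔOGT-ISS and 46 in WT at 24 h. The 48 h ratio of 0.910 (0.618 to 1.34) spans 1, while at 24 h the ratio was 0.314 (0.169 to 0.558). The fitted log2 difference was -0.85 (SE 0.56, edgeR adjusted p = 0.796), and no test set the 24 h ratio against the 48 h one, since each rests on 1 library per line.

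Per transcript length, the 4 adaptors together amounted to 113 FPKM (the deposited counts scaled to transcript length and library size) in ΔOGT-ISS and 192 FPKM in WT at 48 h, and to 113 FPKM in ΔOGT-ISS and 230 FPKM in WT at 24 h. Their make-up differed as well. CD247 held 54.7% of the adaptor FPKM in ΔOGT-ISS and 35.5% in WT at 48 h, and 72.3% in ΔOGT-ISS and 45.4% in WT at 24 h. HCST held 35.8% in ΔOGT-ISS and 54.3% in WT at 48 h, and 21.7% in ΔOGT-ISS and 33.1% in WT at 24 h. TYROBP held 2.05% in ΔOGT-ISS and 5.66% in WT at 48 h, and 5.11% in ΔOGT-ISS and 20.2% in WT at 24 h. In both ΔOGT-ISS libraries CD247 was thus above HCST per length (1.53-fold at 48 h and 3.33-fold at 24 h). In WT the FPKM of CD247 over that of HCST was 0.653 at 48 h and 1.37 at 24 h. FCER1G held 7.46% in ΔOGT-ISS and 4.62% in WT at 48 h and 0.891% in ΔOGT-ISS and 1.37% in WT at 24 h. These shares are descriptions with 1 library each and carry no test.

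**Figure D3:**
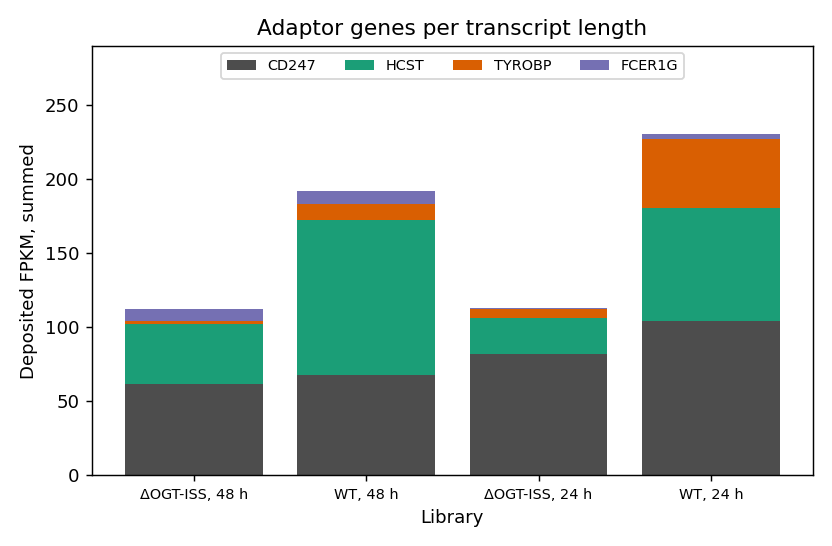
Deposited FPKM of the 4 adaptor genes stacked for each library, so that the bar height is their sum. The bars reach 113 FPKM in both ΔOGT-ISS libraries and 192 and 230 FPKM in the WT libraries at 48 h and 24 h.

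The kinases that bind or phosphorylate the ITAMs did not pass the line test. ZAP70 (chromosome 2, 97713560 to 97739862) had the highest geometric mean FPKM of the members, though HCST and CD247 were above it in WT at 48 h, and was nearly equal in the lines. It was counted at 161 CPM in ΔOGT-ISS cells against 154 CPM in WT cells at 48 h, and at 278 CPM in ΔOGT-ISS cells against 283 CPM in WT cells at 24 h. The ratios of 1.04 (0.974 to 1.11) and 0.982 (0.951 to 1.01) both span 1, and the log2 difference was 0.02 (SE 0.15, edgeR adjusted p = 0.994). SYK (chromosome 9, 90801787 to 90898549), the related ITAM kinase, was higher in ΔOGT-ISS at each time, at 19.8 CPM in ΔOGT-ISS cells against 17.2 CPM in WT cells at 48 h, and at 41.1 CPM in ΔOGT-ISS cells against 26.7 CPM in WT cells at 24 h. The 48 h ratio of 1.15 (0.942 to 1.41) spans 1, and the 24 h ratio of 1.54 (1.40 to 1.70) does not. The log2 difference of 0.42 (SE 0.21) did not pass (edgeR adjusted p = 0.630). ZAP70 exceeded SYK per length 16.7-fold in ΔOGT-ISS and 18.4-fold in WT at 48 h, and 13.9-fold in ΔOGT-ISS and 21.8-fold in WT at 24 h.

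LCK (chromosome 1, 32251239 to 32286165), the Src family kinase of T and NK cells, differed in direction between the times. It was counted at 88.8 CPM in ΔOGT-ISS cells against 107 CPM in WT cells at 48 h (ratio 0.833, 0.765 to 0.908), and at 143 CPM in ΔOGT-ISS cells against 132 CPM in WT cells at 24 h (1.08, 1.03 to 1.13). The counting intervals lie on opposite sides of 1, and the difference was not tested. Over both times the log2 difference was -0.07 (SE 0.17, edgeR adjusted p = 0.966).

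Of the scaffold and effector genes none passed the test, and PLCG2 had the largest difference. PLCG2 (chromosome 16, 81739097 to 81962693) was counted at 25.6 CPM in ΔOGT-ISS cells against 32.5 CPM in WT cells at 48 h, and at 19.0 CPM in ΔOGT-ISS cells against 33.7 CPM in WT cells at 24 h. Both ΔOGT-ISS libraries lay below both WT libraries, an order whose share over all genes tested was not counted. The ratios were 0.789 (0.672 to 0.924) and 0.564 (0.505 to 0.629). The log2 difference was -0.59 (SE 0.21), with an unadjusted p of 0.0217 and an edgeR adjusted p of 0.399. VAV1 (chromosome 19, 6772714 to 6857366) was the steadiest member, at 135 CPM in ΔOGT-ISS cells against 134 CPM in WT cells at 48 h, and at 158 CPM in ΔOGT-ISS cells against 162 CPM in WT cells at 24 h. The fit put it at -0.01 log2 (SE 0.15, edgeR adjusted p = 0.996), with a sign that turned under other scalings (0.01 with upper-quartile factors and 0.03 with library sizes alone). LAT (chromosome 16, 28984826 to 28990783) had 41 reads in ΔOGT-ISS and 47 in WT at 48 h, and 309 in ΔOGT-ISS and 269 in WT at 24 h. Its ratios of 0.808 (0.518 to 1.26) and 0.975 (0.826 to 1.15) span 1, and the log2 difference was -0.16 (SE 0.32, edgeR adjusted p = 0.962). LAT is uncertain because a transcript annotated on the same strand, ENSG00000261067, overlaps nearly all of it (5950 bases) and could take part of its reads.

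**Figure D4:**
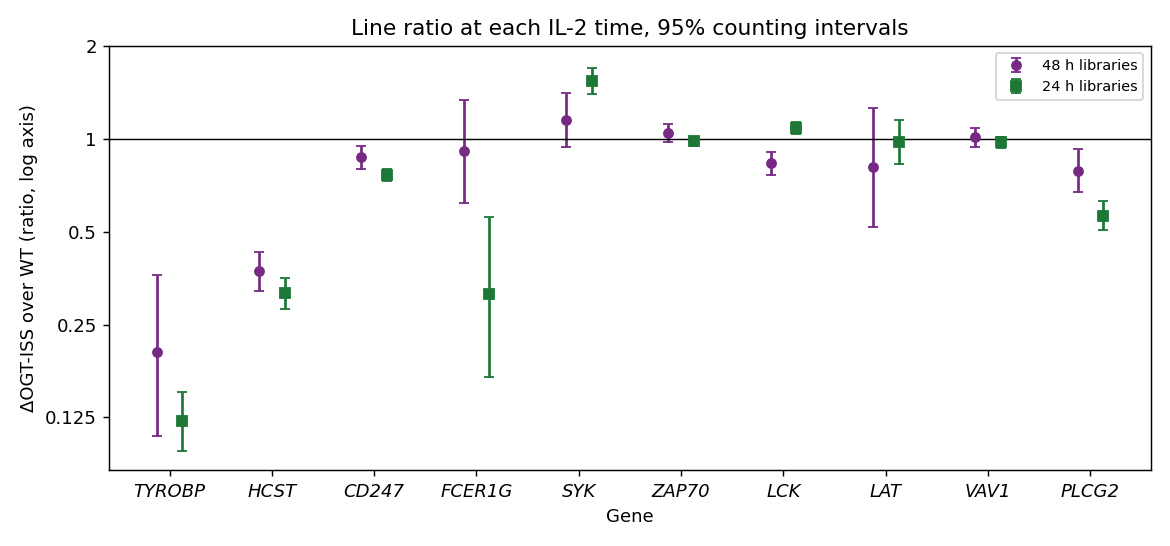
Ratio of ΔOGT-ISS over WT (log axis) for each of the 10 genes at 48 h (circles) and 24 h (squares), with exact conditional binomial 95% intervals that cover counting error only. TYROBP, HCST, CD247 and PLCG2 lie below 1 at both times with intervals clear of it, LCK lies on both sides, and ZAP70, LAT and VAV1 span 1 at both.

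By geometric mean of the FPKM over the 4 libraries the members fell into an upper group, ZAP70 (86.5 FPKM), CD247 (77.4), LCK (55.2), HCST (53.0) and VAV1 (50.5), and a lower group, TYROBP (9.06), SYK (4.96), FCER1G (3.92), LAT (3.92) and PLCG2 (3.11). The ranges of each pair of neighbours in this order overlapped. VAV1 and TYROBP overlapped only through WT at 24 h, where TYROBP reached 46.4 FPKM. TYROBP spread most over the libraries (20.1-fold between lowest and highest FPKM), then FCER1G (8.80-fold) and HCST (4.24-fold), while VAV1 spread 1.24-fold. HCST was the first of the 10 in WT at 48 h and the fifth in both ΔOGT-ISS libraries.

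TYROBP and HCST fell together between the lines but had opposite directions between the times. Over 9854 genes that averaged 5 CPM or more, likeness was taken as the Euclidean distance between log2 CPM values centred over the 4 libraries. Nearest to TYROBP were KIAA0513 (distance 0.57), LAPTM5, a lysosomal membrane protein of blood cells (0.76), and DGKQ, a diacylglycerol kinase (0.85). Nearest to HCST were GATA3, a lymphoid transcription factor (0.15), PKD1L3 (0.18) and IL17RA, a subunit of the interleukin 17 receptor (0.23). Of these, DGKQ (edgeR adjusted p = 0.0695) and PKD1L3 (0.155) did not pass the line test, and DGKQ had 0.701 CPM in ΔOGT-ISS at 48 h. From TYROBP, HCST came at place 749, and from HCST, TYROBP came at place 8786, at a distance of 2.50. The distance was not scaled, so these places also depend on how far each gene spreads over the libraries. With 4 values per gene and so many genes searched, some near matches must occur, and no test was made.

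Between the IL-2 times the members went in both directions. At 24 h against 48 h, TYROBP, LAT, SYK and ZAP70 rose, FCER1G and HCST fell, and CD247, LCK, VAV1 and PLCG2 did not pass the test. Of all genes tested edgeR called 15.0% higher and 10.9% lower at 24 h, 25.9% in all, so that calls were common in this comparison. The median log2 difference was 0.50 over the members and 0.07 over all genes. The time cannot be told apart from anything else that differed between the 24 h and 48 h libraries, depth included.

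TYROBP rose 3.39-fold (log2 1.76, SE 0.33, edgeR adjusted p = 0.00796). At 24 h against 48 h it rose to 3.28 CPM in ΔOGT-ISS, against 1.31, a ratio of 2.49 (1.44 to 4.63). In WT it rose to 26.9 CPM, against 6.43 at 48 h, a ratio of 4.18 (3.25 to 5.45). HCST, its neighbour, went the other way, with ratios of 0.606 (0.517 to 0.712) in ΔOGT-ISS and 0.715 (0.648 to 0.790) in WT. The fit gave a log2 change of -0.60 (SE 0.18, edgeR adjusted p = 0.0458), a call that DESeq2 (-0.55, adjusted p = 0.178), library sizes alone (-0.58, edgeR adjusted p = 0.0507) and no filter on low counts (-0.38, edgeR adjusted p = 0.455) did not make. FCER1G fell 4.75-fold (log2 -2.25, SE 0.57, edgeR adjusted p = 0.0243), with ratios of 0.119 (0.0651 to 0.209) in ΔOGT-ISS and 0.346 (0.230 to 0.520) in WT.

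Among the kinases, SYK rose 1.80-fold (0.85 log2 units, SE 0.21, edgeR adjusted p = 0.0209), a call that limma did not make (0.72, adjusted p = 0.0816), with ratios of 2.08 (1.80 to 2.40) in ΔOGT-ISS and 1.55 (1.31 to 1.84) in WT. ZAP70 rose 1.78-fold (0.83 log2 units, SE 0.16, edgeR adjusted p = 0.00742), with ratios of 1.73 (1.64 to 1.82) in ΔOGT-ISS and 1.84 (1.74 to 1.94) in WT. With offsets for transcript length and GC content, however, ZAP70 stood at -0.13 (edgeR adjusted p = 0.754). LAT rose 2.70-fold (1.43 log2 units, SE 0.32, edgeR adjusted p = 0.0153), while with those offsets stood at 0.69 (0.173). The calls of TYROBP (1.25), SYK (0.88), HCST (-0.93) and FCER1G (-1.94) held with the offsets. CD247 (log2 0.49, edgeR adjusted p = 0.0528) and LCK (0.50, 0.0628) ended just short of the threshold, VAV1 stood at 0.25 (0.272) and PLCG2 at -0.18 (0.554). With any 1 library left out, in fits without the line term, FCER1G, HCST and SYK were not called. TYROBP was called only without ΔOGT-ISS at 24 h and stood at -0.17 without WT at 24 h, and HCST stood at 0.43 without WT at 48 h and 0.13 without ΔOGT-ISS at 24 h.

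Summed over their list, myeloid markers were lower in ΔOGT-ISS than in WT at each time, and lower at 24 h than at 48 h. The summed level of the 12 myeloid markers was 612 CPM in ΔOGT-ISS cells against 828 CPM in WT cells at 48 h, and 48.0 CPM in ΔOGT-ISS cells against 316 CPM in WT cells at 24 h, nearly all of it from S100A9 (584 and 779 CPM at 48 h, and 38.9 and 290 CPM at 24 h). Of the 4 tested, 0 passed the line test (3 lower at an unadjusted p of 0.05 with edgeR, 1 lower with DESeq2, 0 with limma), with a median log2 difference of -1.32. Of all 17492 genes tested, edgeR had 977 lower at that unadjusted p, and DESeq2 called 202 lower over all genes. Between the times S100A8 and S100A9 fell. CSF1R, the receptor of a macrophage growth factor, had 42 reads in ΔOGT-ISS and 100 in WT at 48 h, and 102 in ΔOGT-ISS and 138 in WT at 24 h (log2 -1.002, edgeR adjusted p = 0.459). ITGAM, an integrin gene that NK cells also express, had 86 reads in ΔOGT-ISS and 91 in WT at 48 h, and 117 in ΔOGT-ISS and 201 in WT at 24 h (-0.62, 0.725). The other 8 markers, CD14, LYZ, MPO, SPI1, CD68, FCGR1A, FCN1 and CD33, had 0 to 8 counts per library. TYROBP, FCER1G, SYK and PLCG2 are also genes of myeloid cells. The part of such cells in the results for these members was not tested.

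Around the members, 1 pathway gene rose and 1 fell between the lines. Of 93 tested genes in 5 lists of receptors, kinases, adaptors, negative regulators and downstream steps, edgeR called MATK lower and CBLB higher in ΔOGT-ISS, beside 0.463% of all genes called in either direction. DESeq2, run on all 107 matched list genes, called 7 lower and 1 higher, beside 202 lower and 85 higher over all genes. With limma 0 were called, as over all genes, with an adjusted p of 0.227 for CBLB and 0.245 for MATK on log2(FPKM + 1). CBLB encodes a ubiquitin ligase that restrains activating signals in T and NK cells. It rose 2.45-fold, with 178 CPM in ΔOGT-ISS cells against 84.6 CPM in WT cells at 48 h, and 170 CPM in ΔOGT-ISS cells against 59.7 CPM in WT cells at 24 h (log2 1.29, SE 0.18, edgeR adjusted p = 0.0333). MATK encodes a kinase related to CSK, which silences Src family kinases. It fell 2.28-fold, with 19.5 CPM in ΔOGT-ISS cells against 39.2 CPM in WT cells at 48 h, and 43.4 CPM in ΔOGT-ISS cells against 111 CPM in WT cells at 24 h (log2 -1.19, SE 0.18, edgeR adjusted p = 0.0433). With the 24 h libraries thinned to the shallowest total, MATK was not called (-1.18, edgeR adjusted p = 0.0529). Neither gene was called without the IL-2 term or with any 1 library left out, where CBLB ranged from 1.06 to 1.498 and MATK from -2.01 without ΔOGT-ISS at 24 h to -0.28 without WT at 24 h.

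None of 10 tested genes in the list of receptors drawn up for the adaptors passed the line test (1 higher and 4 lower at an unadjusted p of 0.05 with edgeR, 0 and 1 called with DESeq2, 0 with limma). Of all 17492 genes tested, edgeR had 612 higher and 977 lower at that unadjusted p. DESeq2 called 85 higher and 202 lower over all genes. Of the 10, 5 had a negative and 5 a positive log2 difference. NCR1, NCR3, NCR2, SIRPB1, KLRC2 and KLRK1 are given here outside the rule for naming. NCR1 and NCR3, the NKp46 and NKp30 receptors that signal through CD247 and FCER1G, had log2 differences of -0.60 (edgeR adjusted p = 0.277) and -0.78 (0.102). NCR2, the NKp44 receptor that pairs with TYROBP, had 13 reads in ΔOGT-ISS and 27 in WT at 48 h, and 12 in ΔOGT-ISS and 84 in WT at 24 h. In the other direction, SIRPB1 had 18 reads in ΔOGT-ISS and 0 in WT at 48 h, and 53 in ΔOGT-ISS and 21 in WT at 24 h. KLRC2 had a log2 difference of 0.34 (edgeR adjusted p = 0.896). KLRK1, which encodes NKG2D, the partner of DAP10, was low, at 2.72 CPM in ΔOGT-ISS cells against 1.42 CPM in WT cells at 48 h, and 2.72 CPM in ΔOGT-ISS cells against 2.84 CPM in WT cells at 24 h (log2 0.39, edgeR adjusted p = 0.941). CD160, whose pairing with any of the adaptors was not checked here, stood at 1.90 (SE 0.44, edgeR adjusted p = 0.151). TREM1, which pairs with DAP12 in myeloid cells, stood at -0.94 (SE 0.33, edgeR adjusted p = 0.394). KIR genes are near-identical copies, and of those listed only KIR2DS4 was matched, with 4 to 8 reads per library.

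Among 27 tested adaptors and exchange factors near LAT and VAV1 edgeR called 0 (1 higher and 7 lower at an unadjusted p of 0.05), against 4 lower with DESeq2 and 0 with limma, and the median log2 difference was -0.12. Of all 17492 genes tested, edgeR had 612 higher and 977 lower at that unadjusted p. DESeq2 called 85 higher and 202 lower over all genes. Whether the list differs from all genes in these shares was not tested. LAT2, a scaffold related to LAT, stood at -1.07 (SE 0.18, edgeR adjusted p = 0.0629), and NCK2 at -1.21 (SE 0.38, 0.323), which ranged from -2.13 without WT at 48 h to -0.14 without WT at 24 h. Another 2 genes, outside the rule for naming, were chosen after their values were seen, because they belong to the same step as members. PLCG1, the relative of PLCG2, had a log2 difference of -0.88 (edgeR adjusted p = 0.0709), and LCP2, which encodes the SLP-76 scaffold that works with LAT, had -0.77 (0.118). Those sizes do not describe the whole list, where 16 of the 27 had a negative and 11 a positive log2 difference. In the same list, also outside the rule, GRB2 stood at -0.03 (edgeR adjusted p = 0.986), GRAP2 at 0.26 (0.882) and SH3BP2 at 0.24 (0.783). Of the 30 genes in the list of downstream steps edgeR called 0 (0 higher and 3 lower at an unadjusted p of 0.05), as did DESeq2 and limma, with a median of -0.01. The calcium channel gene ITPR2 stood at -0.66 (SE 0.21, edgeR adjusted p = 0.323) and RASGRP2, a Ras and Rap exchange factor, at 0.95 (SE 0.53, 0.710).

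Between the times, 32 of the 93 pathway genes rose and 11 fell at 24 h, beside 15.0% higher and 10.9% lower over all genes. Once length and GC content were offset, 20 and 7 were called. The shares over all genes belong to the fit without offsets and cannot be set beside that count. TREM1 fell most, to 0.207 CPM in ΔOGT-ISS cells against 0.569 CPM in WT cells at 24 h, against 16.9 and 28.8 CPM at 48 h (log2 -5.92, SE 0.36, edgeR adjusted p = 1.81e-04). NCR3 rose by 1.07 and NCR1 by 0.90 on the log2 scale (edgeR adjusted p = 0.00304 and 0.00919). Without the line term neither was called (edgeR adjusted p = 0.0948 and 0.0836), and with 1 library left out NCR3 ranged from 0.69 without ΔOGT-ISS at 48 h to 1.63 without WT at 48 h. Among the kinases MATK (1.33), CSK (1.01) and FGR (0.50) rose and FYN (-0.52) fell (edgeR adjusted p = 0.00215, 0.00355, 0.0481 and 0.0447). With the offsets these 4 did not pass, FYN was also not called by DESeq2 or without the filter, and FGR not with upper-quartile factors or thinned libraries, and CSK (-0.0010) and FGR (-0.028) lost their direction.

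In the adaptor list LIME1 (2.71), SLA2 (1.35) and PIK3CD, the δ catalytic subunit of phosphoinositide 3-kinase (0.90), rose and PIK3CB (-1.27) fell. Of these, SLA2 and PIK3CB passed with the offsets. Among negative regulators DOK1 (1.05) and UBASH3A (1.02) rose, and PAG1, the membrane anchor of CSK (-1.39), and the phosphatase gene PTPN12 (-0.88) fell, and UBASH3A and PAG1 passed with the offsets. DESeq2 did not call DOK1 (adjusted p = 0.0594), and without the line term edgeR did not call MATK (0.119), PTPN12 (0.181) or UBASH3A (0.0827). Downstream, CARD9 (2.74), RASGRP2 (2.15), the calcium channel gene ORAI2 (1.73) and CORO1A, an actin regulator (1.63), rose, and all 4 passed with the offsets. RASGRP2 was not called by limma (adjusted p = 0.0578 on log2(FPKM + 1)) or, with edgeR, without the line term (0.0580). The edgeR adjusted p of these 12 genes was between 9.35e-04 and 0.0264.

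**Figure D5:**
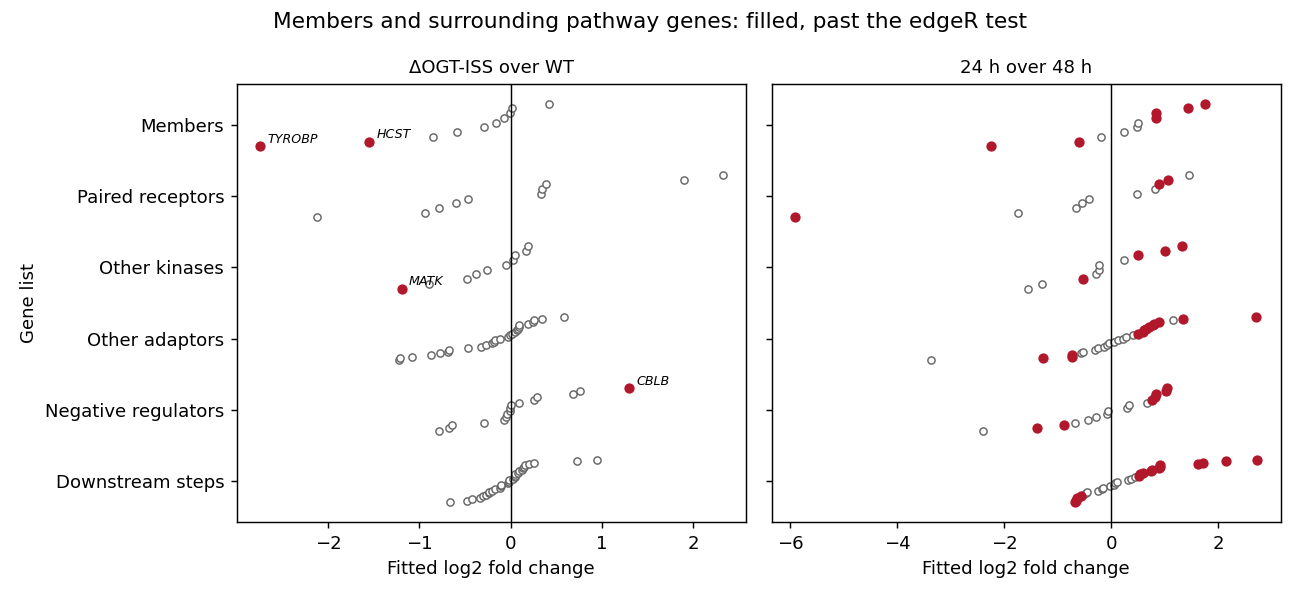
Fitted log2 fold change of the 10 members and of the tested genes in 5 surrounding lists, for ΔOGT-ISS over WT (left) and 24 h over 48 h (right), 1 point per gene in rising order within each list, filled where the edgeR adjusted p was under 0.05. On the left TYROBP, HCST, MATK and CBLB are filled, and on the right 6 members and 43 list genes.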

How the data were processed

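Total RNA from the 4 NK-92 libraries went through RiboCop depletion of ribosomal RNA and CORALL V2 library preparation, per the labels' protocols. The deposited counts are whole reads per Ensembl gene and carry no scaling. HISAT2 2.2.0, SAMtools 1.15.1, featureCounts 2.0.1 and the build hg38 come from the submitters' processing notes. The sources used here do not give the annotation release, the strand setting or the treatment of multi-mapping reads. The FPKM deposited by the authors was reproduced from the count, the length listed beside it and the sum of the listed counts. Positions are from GENCODE release 29 (GRCh38). Promoter sequence is not reported here.

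Each comparison used the quasi-likelihood test of edgeR 4.0.16 (R 4.3.3) on the counts, with TMM, filterByExpr (minimum count 10), the model line + IL-2 time, 1 residual degree of freedom, two-sided, Benjamini-Hochberg adjusted over 17492 genes, threshold 0.05. The SE was taken from the log2 difference and the F statistic. Each line gave 1 library per time, so the residual is how far the line difference changes between the times, not scatter between replicates. It may be partly technical, and edgeR moderates it with the variance of other genes. No label names separate cultures, so the SE and p-values do not measure how cultures vary. Ratios of single libraries have exact conditional binomial 95% intervals, and these and the limit of 3 counts cover counting error only. On simulated counts with 200 changed genes, the line fit recovered 73.0%, 95.4% and 100% of those tested at 1, 2 and 3 log2 units. The simulation gave every gene the same dispersion and no IL-2 effect, so these rates do not measure power in the real libraries.

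Members and lists were chosen with earlier results of these data known. All members were named, and from each list up to 4 genes past the test, or else the 2 largest differences among genes averaging 5 CPM or more. Some further list genes, marked as outside this rule, were also given. The 3 genes nearest to TYROBP and to HCST used log2(CPM + 0.1). Other settings tried were DESeq2 1.42.0, limma 3.58.1 on log2(FPKM + 1 or 0.1), upper-quartile factors, library sizes alone, no filter, thinned 24 h libraries, models without the other term, each library left out, regional medians removed, and offsets for length and GC content (known for 16751 of the tested genes). Replicate numbers were given in accession order and pair nothing. The IL-2 time is the block of the design.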

Additional observations from a re-analysis of the deposited data

Results flagged for a closer look

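LCK had opposite directions between the lines at the 2 IL-2 times. The ratio of ΔOGT-ISS over WT was 0.833 at 48 h (88.8 CPM in ΔOGT-ISS against 107 CPM in WT) and 1.08 at 24 h (143 CPM in ΔOGT-ISS against 132 CPM in WT). Each ratio rests on 1 library per line, and the difference between the ratios was not tested.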

How the results depend on the processing

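Counts of calls are given higher first, then lower. The members called between the lines stayed at 0 and 2 with DESeq2, upper-quartile factors, library sizes alone, no filter, thinned 24 h libraries and regional medians removed, and were 0 and 0 with limma at either pseudocount and with no replicate block (IL-2 time left out). The pathway genes called between the lines were 1 and 1 as reported, 1 and 7 with DESeq2, 2 and 8 with no filter, 1 and 0 after thinning, and 0 and 0 with limma at either pseudocount and with no replicate block. Over all genes DESeq2 called 287 between the lines, no filter 546, thinning 58, and limma and no replicate block 0 each, against 81. Between the times the members called were 4 and 2 as reported, 5 and 1 with DESeq2 and with library sizes alone, 6 and 1 with no filter, 2 and 0 with no replicate block (line left out), and 2 and 2 with the length and GC offsets. The pathway genes, 32 and 11 as reported, were 30 and 7 with DESeq2, 37 and 4 with no filter, 28 and 5 with limma on log2(FPKM + 0.1), 15 and 5 with no replicate block, 20 and 7 with the offsets, and 25 and 16 with upper-quartile factors. Over all genes 4535 were called between the times as reported and 3682 with DESeq2. With library sizes alone the total was 4619, with upper-quartile factors 4693 and with no filter 4897. For the other settings that total is not given here. Small line differences turned sign for VAV1 (0.015 with upper-quartile factors, 0.035 with library sizes alone, 0.033 with limma at either pseudocount) and ZAP70 (-0.029 with no filter, -0.070 with regional medians removed). Time differences turned for PLCG2 (0.031 with no filter, 0.090 with the offsets) and, with the offsets, for FGR (-0.028), ZAP70 (-0.13), CSK (-0.0010) and VAV1 (-0.24). With each library left out, the fit kept only the term compared, an arm of 1 library was assumed to vary like the other, and between the lines 0 members and 0 pathway genes were called. Between the times 0 to 2 members were higher and 0 lower, and 8 to 16 pathway genes higher and 1 to 7 lower. Line differences then ran from -0.61 to 0.043 for CD247, -2.61 to 0.45 for FCER1G, -1.17 to 0.73 for LAT, -0.48 to 0.26 for LCK, -0.996 to 2.199 for RASGRP2, -0.21 to 0.90 for SYK, -6.10 to 3.80 for TREM1, -0.19 to 0.16 for VAV1 and -0.51 to 0.54 for ZAP70. Time differences ran from -1.54 to 0.43 for HCST, -0.54 to 0.29 for PLCG2 and -0.17 to 3.60 for TYROBP. The cause of these changes was not tested, but those fits hold fewer libraries and 1 term. Depth limits FCER1G, LAT and TYROBP most, with 17, 41 and 15 reads in their lowest library.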
